A study of Caenorhabditis elegans with 2 samples.

Results

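The regions described here were binding peaks of the K11D2.4 protein whose summits lay between the starts of 2 protein-coding genes that are transcribed away from each other. A peak of the main list was kept when its summit lay in a promoter, from 1000 bp upstream to 200 bp downstream of a protein-coding transcript start, and also between a minus-strand gene start on its left and a plus-strand gene start on its right that were at most 2000 bp apart. Of the 1927 main peaks, 996 lay in promoters, and 272 of these were kept (27.3% of promoter peaks, exact Clopper-Pearson 95% interval 24.6 to 30.2, and 14.1% of all main peaks). They lay in 260 gaps between gene starts and concerned 518 genes. Each gap is named below by its minus-strand gene, a slash and its plus-strand gene.

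The peaks came from chromatin immunoprecipitation and sequencing (ChIP-seq) with an antibody against GFP in whole Caenorhabditis elegans. The strain, RW12320, carries K11D2.4::TY1::EGFP::3xFLAG, a tag inserted by CRISPR into K11D2.4 on chromosome I, so the fusion is made from the gene's own locus and the antibody reads the tagged protein of all tissues together. Both libraries were of this 1 genotype: 2 biological replicates of young adults aged 62 hours, grown from L1 larvae that had been starved after bleaching, with chromatin sonicated to 200 to 800 bp. Neither an untagged strain nor input chromatin was analysed here, and precipitation that does not depend on K11D2.4 was not tested at any peak below.

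K11D2.4 encodes a protein annotated in RefSeq as having a C2H2-type zinc finger domain, and the class is one in which many members bind specific DNA sequences. Divergent gene pairs start close together on opposite strands, so that 1 stretch of DNA can hold the promoters of both, and a factor bound there cannot be given to either gene by position alone. In C. elegans the 5′ end of many messenger RNAs is cut off and replaced by a spliced leader, so an annotated gene start is often the site of this trans-splicing, and transcription can begin further upstream, inside the gap. Of the 518 genes, 134 (25.9%) had TTTCAG, the usual end of a worm splice acceptor, directly before the annotated start, against 2447 of all 19973 protein-coding genes (12.3%). Distances to a start are therefore given from the annotation and can exceed the distance to the site of initiation.

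The sequences at the summits are shown first for the gaps on which the results turn. Each is read 5′ to 3′ on the plus strand of the RefSeq genome (build ce11, WBcel235) and covers the 50 bases on either side of the summit. K01G5.10/tasp-1 and rpl-18A/Y17G9B.5 held the highest peaks of the set, and Y22D7AL.10/hsp-60 lies between the genes of the mitochondrial chaperonin partners. Capitals in the last 3 of these mark CGCAGA, a word chosen with earlier results of these data known. Most summits lack it. Within 50 bp of the summit it was present at 255 of the 1927 main peaks (13.2%) and at 45 of the 272 peaks described here (16.5%). In windows upstream of all protein-coding gene starts the share was 3.32%.
K01G5.10/tasp-1 (III:10759205-10759305): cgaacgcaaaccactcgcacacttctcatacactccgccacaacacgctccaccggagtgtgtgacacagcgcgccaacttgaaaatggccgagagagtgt
rpl-18A/Y17G9B.5 (IV:4750018-4750118): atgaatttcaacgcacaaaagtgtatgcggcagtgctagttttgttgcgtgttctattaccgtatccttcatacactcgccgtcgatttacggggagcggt
Y22D7AL.10/hsp-60 (III:1619071-1619171): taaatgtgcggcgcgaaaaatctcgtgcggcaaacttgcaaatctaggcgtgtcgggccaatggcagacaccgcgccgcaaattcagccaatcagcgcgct
drr-2/set-16 (III:13643692-13643792): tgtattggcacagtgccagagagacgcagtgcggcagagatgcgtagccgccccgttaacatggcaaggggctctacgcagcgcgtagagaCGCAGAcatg
ntl-11/fdx-2 (IV:15471565-15471665): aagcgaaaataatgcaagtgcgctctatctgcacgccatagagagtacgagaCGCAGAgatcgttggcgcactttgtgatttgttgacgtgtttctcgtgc
hsp-3/C15H9.5 (X:6092134-6092234): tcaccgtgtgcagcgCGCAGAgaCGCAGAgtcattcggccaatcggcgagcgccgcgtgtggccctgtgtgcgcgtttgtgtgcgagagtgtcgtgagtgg

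Another pair of windows is shown for a different pattern, and capitals there mark units GAA and TTC that alternate with 2 bases between them. Such arrays are known as heat shock elements, the binding sites of the heat shock factor HSF-1.
F44E5.4/F44E5.5 (II:11759399-11759499): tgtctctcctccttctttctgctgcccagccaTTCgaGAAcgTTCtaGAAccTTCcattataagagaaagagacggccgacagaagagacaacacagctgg
hsp-110/rpn-3 (III:8447103-8447203): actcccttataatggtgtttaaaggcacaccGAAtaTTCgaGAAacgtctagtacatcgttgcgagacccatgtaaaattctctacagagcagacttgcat

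A short gap is shown whole, from the base after 1 gene start to the base before the other, with the 31 bases centred on the summit in capitals. It has a ribosomal protein gene on 1 side, and the bases around the summit are richer in G and C than the gap as a whole. The GC content was 54.5% in the 101 bases around the summit and 39.5% over the gap.
rpl-7A/set-21 (IV:4390591-4390843): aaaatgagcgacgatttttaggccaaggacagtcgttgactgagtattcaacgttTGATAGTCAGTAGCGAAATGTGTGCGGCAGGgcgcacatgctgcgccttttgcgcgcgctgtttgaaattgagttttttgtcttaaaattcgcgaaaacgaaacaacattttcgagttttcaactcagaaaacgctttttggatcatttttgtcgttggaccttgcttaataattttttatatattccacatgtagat

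The strength of a peak is given as the authors' signal, a height with no stated scaling, first in the pooled main list and then in each replicate's own ranked list. Over the 272 peaks the pooled signal ranged from 10.3 to 1197, with a median of 130 and quartiles of 97.8 and 206. In replicate 1 the median was 64.8 (32.4 to 600, 270 peaks) and in replicate 2 it was 67.7 (31.6 to 593, 272 peaks). Whether the pooled list and the single replicates share a scale is not stated, and their signals are not compared with each other. The peaks made up 29 of the 100 highest main peaks and 5 of the 20 highest.

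The highest peak, between K01G5.10 and tasp-1 on III, had a signal of 1197 in the pooled list, 600.3 in replicate 1 and 593.4 in replicate 2. K01G5.10 is named a haloacid dehalogenase-like hydrolase and tasp-1 a homologue of taspase, a protease. The summit lay 52 bp from the start of tasp-1 and 733 bp from that of K01G5.10, in a gap of 785 bp. The next was rpl-18A/Y17G9B.5 on IV, at 867.7 in the pooled list, 447.5 in replicate 1 and 420.3 in replicate 2. RPL-18A is a protein of the large ribosomal subunit, and the product of Y17G9B.5 is named as a mitochondrial signalling intermediate of the Toll pathway. Its summit lay 172 bp from Y17G9B.5 and 290 bp from the ribosomal protein gene.

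The peak at rpl-15/K11H12.8, with another large-subunit gene, measured 810.2 pooled, 414.0 in replicate 1 and 403.3 in replicate 2. It stood near the middle of its gap, 349 bp from rpl-15 and 465 bp from K11H12.8. At cdc-48.1/C06A1.7 the values were 810.0 pooled, 398.6 and 413.0, and the summit was 154 bp from cdc-48.1, which encodes an AAA ATPase that unfolds ubiquitinated proteins. That gap of 1484 bp holds the start of a further gene. In these 4 gaps the replicates differed little beside the height of the peaks.

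A pair of Hsp70 genes, F44E5.4 and F44E5.5, shared the fifth peak, with 767.7 pooled, 451.9 in replicate 1 and 315.7 in replicate 2. Here replicate 1 was the higher, by 0.52 on the log2 scale. The gap is 351 bp long, and the summit was 138 bp from F44E5.4 and 213 bp from F44E5.5. The window printed above holds an unbroken run of 5 alternating TTC and GAA units.

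The next peaks had partners of several functions. The peak at cct-8/Y55F3AR.2 reached 623.8 (323.4 in replicate 1, 303.0 in replicate 2), and cct-8 encodes a subunit of the cytosolic chaperonin. At nhl-2/tag-340, with a gene of the TRIM-NHL family and one for a START domain protein, it was 586.3 (288.3 and 289.2). At ifet-1/rps-3A, which joins a translational repressor and a small-subunit protein, it was 573.6 (294.2 and 275.3). At drr-2/set-16 it was 565.1 (304.9 and 251.4), with the summit 172 bp from drr-2, an RNA-binding protein gene, and 174 bp from set-16, a histone H3 lysine 4 methyltransferase gene. That summit lay within a few bases of the exact middle of the gap. At Y22D7AL.10/hsp-60 the signal was 456.6 (237.5 and 210.7), with Y22D7AL.10 named as the mitochondrial heat shock protein that forms the lid of the HSP-60 chamber. Both genes therefore encode parts of 1 folding machine, and the summit was 192 bp from the smaller partner's gene and 621 bp from hsp-60. At his-35/his-37, genes of histones H2A and H4, it was 504.5 (274.2 and 241.4), 87 bp from his-37 and 1730 bp from his-35 in a gap that holds another gene start.

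Among the top 20 peaks that the thresholded lists of both replicates also held, 7 had a ribosomal protein gene on 1 side and 3 a gene of the chaperone list, while over all 272 peaks this was so for 21 (7.72%) and 16 (5.88%). The other 10 had neither, among them dct-11/puf-9, with a gene of the Pumilio family (465.6; 213.2 in replicate 1 and 259.2 in replicate 2), and nrde-2/atad-3 (437.0; 176.0 and 270.6). The remaining ribosomal protein gaps were rps-19/hsr-9 (496.9; 263.1 in replicate 1 and 225.9 in replicate 2), rpl-7A/set-21 (482.7; 252.3 and 232.1), rpl-12/lin-54 (432.7; 235.7 and 202.9) and ska-3/rps-12 (395.3; 217.6 and 170.7). Their partner genes encode a 53BP1-like repair protein, a SET domain protein, a DNA-binding subunit of the DREAM repressor complex and a kinetochore protein. The summit was nearer to the ribosomal protein gene at rpl-12, 32 bp away, and at rpl-7A, 71 bp away, but nearer to the partner at rps-19 and rps-12. Of the 20 peaks 14 were higher in replicate 1, the log2 ratios ran from -0.62 to 0.52, and 16 lay in the promoter windows of both genes. All 20 had a pooled signal of 385 or more.

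**Figure D1:**
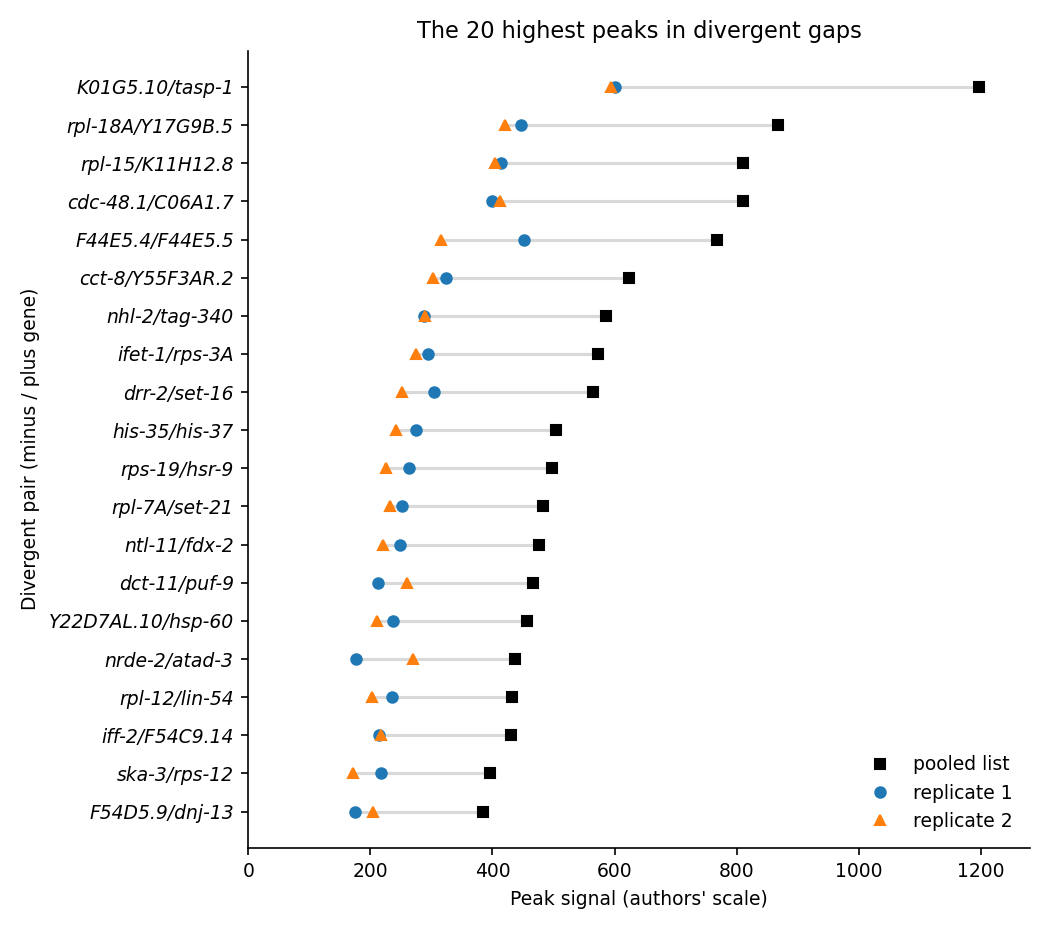
The authors' peak signal (horizontal axis, arbitrary height) of the top 20 peaks that both replicates' own lists also held, by gene pair, in the pooled list (squares), replicate 1 (circles) and replicate 2 (triangles). The squares run from 1197 at K01G5.10/tasp-1 to 385 at F54D5.9/dnj-13, and the 2 replicates lie close together except at F44E5.4/F44E5.5 and nrde-2/atad-3.

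Peaks between divergent starts were compared with the 617 other promoter peaks that lay upstream of the nearest start with no divergent partner within range, called one-sided here. A signal above the median of all main peaks, 101, was found for 195 of the 272 peaks (71.7%, exact 95% interval 65.9 to 77) and for 318 of the 617 one-sided peaks (51.5%, 47.5 to 55.5), where the background of all main peaks is 50% by construction. The odds ratio was 2.38 (1.73 to 3.28), and the two-sided Fisher's exact test, adjusted by Benjamini-Hochberg over 3 tests, gave p = 5.52e-08. The median signal was 130 against 102 in the pooled list, 64.8 against 53.9 in replicate 1 and 67.7 against 53.5 in replicate 2. The direction was the same in both replicates. Their medians cover peaks selected in the list that pools both, so they are not independent of it. Among the 50% of main peaks with the highest signal, the difference no longer passed the test (60.5% against 50.6%, Fisher's exact adjusted p = 0.107), with the median taken within those peaks.

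A higher signal was also found among peaks with no gene of the lists below. Those lists are drawn by gene name and miss genes such as F44E5.4 and F44E5.5. Of the 153 peaks with no gene of any list on either side, 103 had a signal above the median (67.3%, 59.3 to 74.7), with a median of 119. Of the 513 one-sided peaks whose nearest gene was in no list, 259 did (50.5%, 46.1 to 54.9), with a median of 102. Higher medians than at one-sided peaks were also found both near to and far from a start. At over 300 and up to 1000 bp from the nearer start the median was 122 for 55 peaks, against 97.5 for 346 one-sided peaks, and within 100 bp it was 141 for 76 peaks against 108 for 71. The parts of gene content, distance and chromosome in the difference were not tested. Some main peaks share a single peak of a replicate with a higher main peak, and these were fewer here (4 of 272, 1.47%) than among one-sided peaks (58 of 617, 9.4%, with a median signal of 13.7). With all such peaks left out, as was decided after the values were seen, the shares above the median of the rest were 68.3% and 52.1% (Fisher's exact adjusted p = 2.77e-05). Tests treat peaks as independent and cover counting error in these lists, not the spread between animals, and the 24 peaks that share a gap with another share a target.

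**Figure D2:**
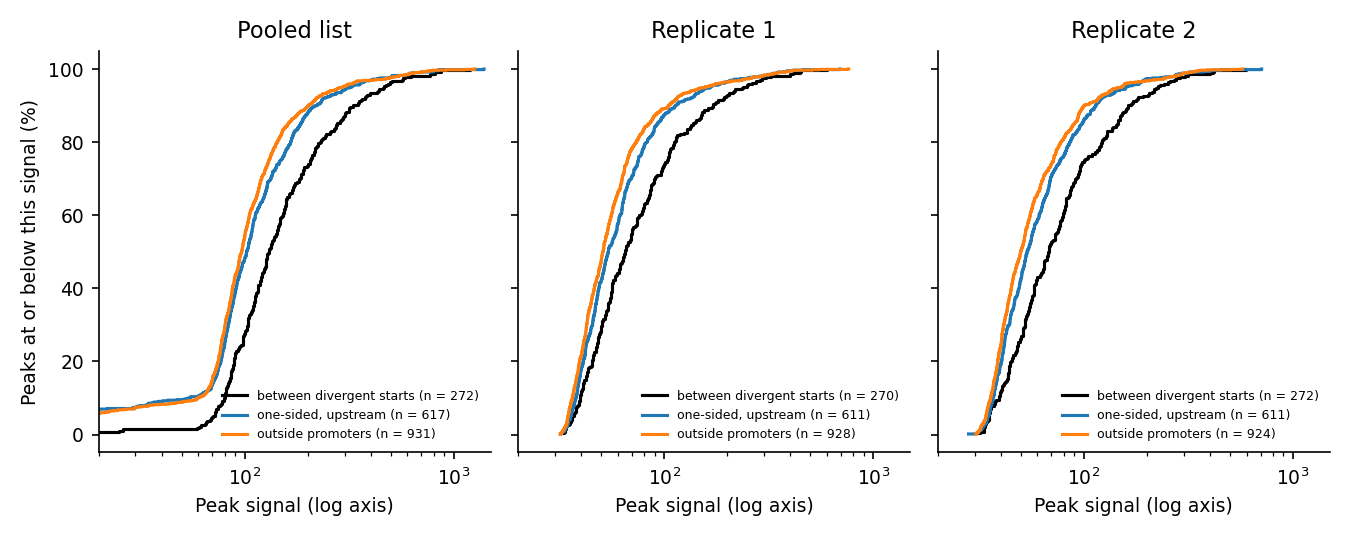
Share of peaks (vertical axis, percent) at or below a given signal (horizontal log axis, from 20 upward) for peaks between divergent starts, one-sided upstream promoter peaks and peaks outside promoters, in the pooled list and in each replicate. The curve of the peaks between divergent starts lies to the right of the others at the quartiles and the median in all 3 panels, with medians of 130, 64.8 and 67.7. The highest single peak of each panel belongs to another class.

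Both replicates' own thresholded lists held 143 of the 272 peaks (52.6%, 46.5 to 58.6), against 242 of the 617 one-sided peaks (39.2%, 35.3 to 43.2) and a background of 36.6% of all main peaks. The odds ratio was 1.72 (1.27 to 2.31), with p = 0.000358 in the two-sided Fisher's exact test adjusted over the same 3 tests. Among the 50% of main peaks with the highest signal the shares were 72.8% and 67.6% (Fisher's exact adjusted p = 0.354). Of the other peaks between divergent starts, 22 were in the list of replicate 1 alone, 50 in that of replicate 2 alone and 57 (21%) in neither. These 57 passed the threshold of the main list and of neither replicate's own list, which does not mean that a replicate had no peak there.

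In the longer ranked lists, 270 of the 272 had a peak in both replicates. The log2 ratio of replicate 1 to replicate 2 had a median of 0.01 and an SD of 0.41 over these peaks, 137 of them were higher in replicate 1, and across peaks the Spearman correlation was 0.796. The peaks were selected by reproducible ranking, and the part of this in the correlation was not tested. The peaks that differed most toward replicate 2 were vps-51/lin-35 (45.2 in replicate 1 and 119.0 in replicate 2), dnj-14/glit-1 (37.6 and 72.8) and nmy-2/T22C1.1 (40.7 and 78.5). LIN-35 is the worm retinoblastoma-like protein, and NMY-2 a non-muscle myosin. Toward replicate 1 it was F55A11.1/syx-5 (104.4 and 49.4), a syntaxin gene on 1 side, followed by the pair of summits at efl-1/fbxa-90, which fall in a single peak of each replicate (63.6 and 33.2). The second of those summits, beside the gene of an E2F family factor, had the lowest pooled signal of the set, 10.3. No ranked peak of replicate 1 lay at Y37E11AM.2/smgl-2 (52.1 in replicate 2, pooled 101.4) or exoc-7/tufm-2 (33.5, pooled 77.5).

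The gap between the 2 starts had a median length of 647 bp (quartiles 402 and 1205, range 92 to 1991), and the summit lay a median of 166 bp from the nearer start (86.5 to 260, range 1 to 793). One-sided summits lay further out, at a median of 347 bp (185 to 606), although the nearer of 2 starts is by its definition closer than a single start need be. Of the 272 summits, 217 (79.8%, 74.5 to 84.4) were within 300 bp of a start, 85 (31.2%) within 300 bp of both and 41 (15.1%) within 50 bp of 1. The plus-strand gene was the nearer in 147 cases and the minus-strand gene in 125. In 214 cases (78.7%, 73.3 to 83.4) the summit lay in the promoter windows of both genes. The peaks themselves covered at least 1 start in 116 cases and both in 13, and 197 of them had the same width of 324 bp.

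Summits did not gather at the midpoint of all gaps alike. Over the whole set, 146 (53.7%, 47.6 to 59.7) lay in the central 50% of the gap, an interval that includes the 50% of its length. In gaps of over 250 and up to 500 bp the share was 71.4% of 84 summits, in those up to 1000 bp 60.7% of 84, and in those up to 2000 bp 36% of 86. The median distance to the nearer start went from 125 bp to 194 and 277 bp over these lengths, while the mean for positions spread evenly over a gap of median length went from 94.6 to 176 and 374 bp. In the widest class, then, summits stood nearer to a start than even spacing gives. The 1092 lower-ranked peaks in gaps of that class, which no thresholded list holds, were at a median of 381 bp with 52.6% in the central part. Lower-ranked peaks in gaps of over 250 and up to 500 bp were at a median of 98 bp with 55.1% in the central part. For gaps up to 1000 bp these values were 179 bp and 48.8%, and for gaps up to 250 bp 41 bp and 41.5%. In gaps of up to 250 bp the 18 summits lay a median of 24.5 bp from a start, with 22.2% in the central part, and 10 of these peaks covered both starts.

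**Figure D3:**
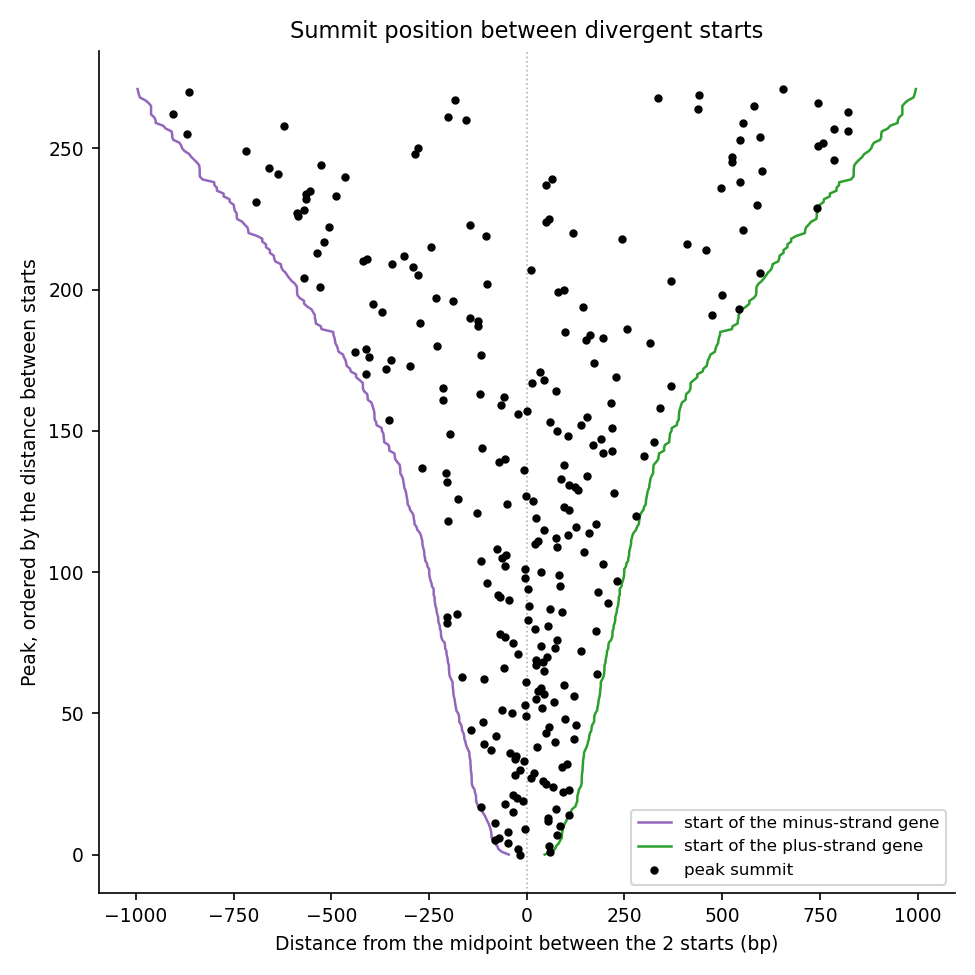
Position of each of the 272 summits (points) between the start of the minus-strand gene (left line) and of the plus-strand gene (right line), in bp from the midpoint, with gaps ordered by length upward. Points fill the middle of gaps of 250 to 500 bp and sit along either side in gaps over 1000 bp, where 36% are in the central 50%.

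The peaks in the shortest and the widest gaps are given next. The shortest gap with a summit, 92 bp between ears-2, a mitochondrial tRNA synthetase gene, and uncp-18, had a signal of 158.9 (89.6 in replicate 1 and 74.9 in replicate 2). E02H1.1/tag-124, a gap of 128 bp between genes for RNA-modifying enzymes, had 142.0 (81.2 and 52.01), and T26A8.4/pdtf-1, of 145 bp, had 143.4 (65.7 and 89.1). The widest were scyl-1/lap-2 (1991 bp, signal 84.5, 48.2 and 45.1), dhhc-9/C43H6.4 (1988 bp, 89.1, 43.2 and 47.7) and srg-64/nhr-255 (1984 bp, 214.1, 110.1 and 101.7). Just past the limit of 2000 bp, and so not members, were promoter summits at elc-1/Y82E9BR.3 (2006 bp, signal 121), T07F10.3/bus-19 (2008 bp, 148) and C07A12.7/pdi-2 (2011 bp, 136). Median signal by gap class was between 126 and 142.

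Main summits were set against all 2560 pairs of divergent starts at most 2000 bp apart with no other protein-coding start between them. A summit was held by 249 of them (9.73%, exact 95% interval 8.61 to 10.9). By length, 18 of 373 pairs up to 250 bp held 1 (4.83%, 2.88 to 7.52), 83 of 544 over 250 and up to 500 bp (15.3%, 12.3 to 18.6), 80 of 828 up to 1000 bp (9.66%, 7.74 to 11.9) and 68 of 815 up to 2000 bp (8.34%, 6.54 to 10.5). Per kb of gap, this was 0.295, 0.419, 0.138 and 0.0647 summits, so that gaps of 250 to 500 bp were highest on both measures. By chromosome the share ran from 6.44% on II (30 of 466 pairs) to 12.5% on III (48 of 385), and X stood at 11.2% (20 of 178, 7 to 16.8). X held 22 of the 272 peaks (8.09%) but 22.7% of the one-sided peaks, and it also held few of the pairs. Pairs on X that held a peak had a median gap of 1334 bp, against 575 to 692 bp on the other chromosomes. They were not compared with the pairs on X that held none.

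The genes on either side were grouped by lists, each read against the 498 of 5120 genes in such pairs whose gap held a summit (9.73%). Cytosolic ribosomal protein genes had a summit in 22 of 47 cases (46.8%, 32.1 to 61.9), with a median signal of 182. The chaperone list had 16 of 38 (42.1%, 26.3 to 59.2), median 207, and the chromatin list 13 of 31 (41.9%, 24.5 to 60.9), median 168. The lists were made with results of these data known, and genes of a pair share 1 summit, so no test was run on them.

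The chaperone list was drawn by gene name and so holds neither F44E5.4 and F44E5.5 nor Y22D7AL.10. Beside cct-8 and hsp-60, it held dnj-13, an Hsp40 gene (384.9; 174.5 in replicate 1 and 204.7 in replicate 2), dnj-28 (303.0; 137.8 and 177.9) and cct-1, another chaperonin subunit gene (293.7; 142.4 and 151.4). It also held hsp-3, which encodes the Hsp70 of the endoplasmic reticulum (274.0; 110.5 and 144.1), where the summit was 60 bp from the start. The chaperone gene was, however, the farther of the 2 genes in 12 of 16 gaps that had 1 gene of the list, and the ribosomal protein gene was the farther in 11 of 18. For the chromatin list the gene was the nearer in 6 of 14. Its members beside set-16, set-21 and lin-54 included lin-53, a histone-binding protein gene (348.5; 203.6 and 148.7), and htz-1, the gene of the H2A.Z variant (204.2; 104.4 and 95.4).

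The intervals of the 3 lists above, and of 3 further lists with lower shares, began above the background share. These intervals count each gene separately, although genes of a pair share 1 summit, and are a description and not a test. The further lists were mitochondrial respiration (7 of 28, 25%, 10.7 to 44.9), vesicle traffic (12 of 53, 22.6%, 12.3 to 36.2) and splicing (9 of 44, 20.5%, 9.8 to 35.3). For splicing the lower limit was next to the background of 9.73%, with rsp-1 and rsp-2 counted separately for 1 shared peak. Lists with shares above the background and intervals that included it were RNA polymerase and general transcription (4 of 19, 21.1%), translation factors and tRNA synthetases (8 of 39, 20.5%), nuclear pore and import (5 of 26, 19.2%), cell cycle (8 of 48, 16.7%) and the vacuolar ATPase, with only 8 genes (3 of 8, 37.5%). Among the genes of these lists, atp-1 of ATP synthase stood 9 bp from a summit of 297.0 (148.7 in replicate 1 and 149.0 in replicate 2), and iff-2, which encodes translation factor eIF5A, 65 bp from one of 430.7 (214.3 and 216.7). The gene of the translocon subunit sec-61.G was 238 bp from one of 375.6 (200.1 and 180.8). In the translation list the listed gene was the nearer in 6 of 8 gaps, with eef-1G at 12 bp and eef-2 at 39 bp.

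Proteasome (6 of 52, 11.5%), nuclear hormone receptor (5 of 44, 11.4%) and mitochondrial ribosomal protein genes (3 of 27, 11.1%) were close to the background. Other gene families had shares below the background. The chemoreceptor list had 3 of 276 (1.09%, 0.225 to 3.14), F-box genes 2 of 98 (2.04%, 0.248 to 7.18), and C-type lectins 0 of 78 (exact upper limit 4.62%). Collagens had 2 of 38 (5.26%), with an interval of 0.644 to 17.7 that includes the background. The chemoreceptor genes with a summit were sri-5, whose partner rsr-1 encodes an SR-related splicing protein, srg-64 and srh-16, with signals of 259, 214 and 139.

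**Figure D4:**
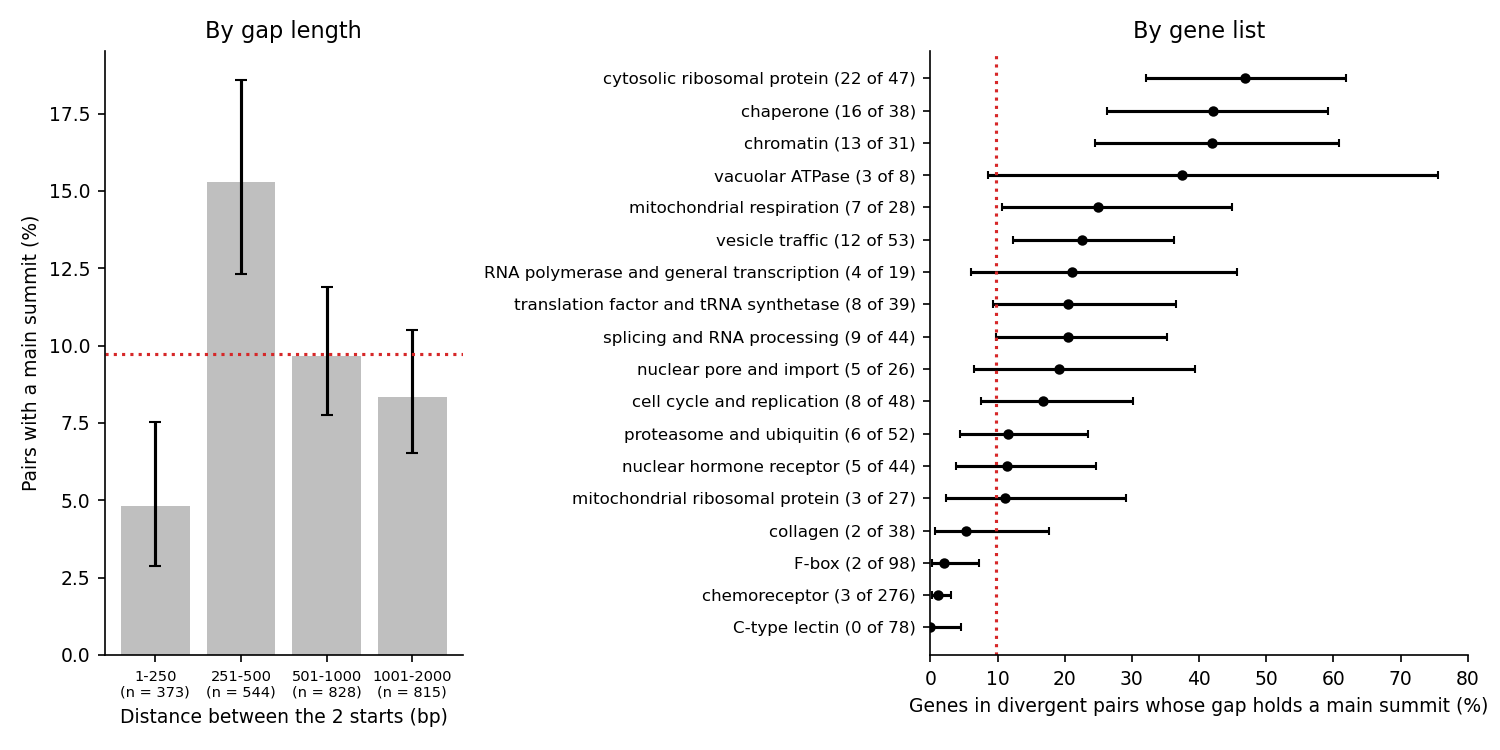
Left, share of divergent pairs that hold a main summit (percent, bars from 0, with exact 95% intervals) by distance between the starts. Right, share of genes in such pairs whose gap holds a summit, by gene list, with exact 95% intervals that count genes of 1 pair separately. The dotted line in both is the background of 9.73%. The intervals of the ribosomal protein, chaperone, chromatin, respiration and vesicle traffic lists lie above the line. The splicing interval begins next to it, at 9.8%, and chemoreceptor genes lie at 1.09%. No list was tested.

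Some gaps joined genes of a single function. The splicing factor genes rsp-2 and rsp-1 shared a peak of 204.6 (96.8 in replicate 1 and 88.8 in replicate 2), 255 bp and 152 bp from their starts. The ribosomal protein pairs rps-10/rpl-24 (109.7; 53.8 and 54.7) and rps-14/rpl-36 (84.8; 50.3 and 37.1) had lower peaks, neither of them in both replicates' own lists. The last pair with both genes in 1 list was czw-1/mcm-3AP (81.2; 39.3 and 37.6). The cell cycle list took mcm-3AP by the start of its name, and its product is a PCI domain protein. A higher peak, of 224, had czw-1 and F20D12.12 as its nearest starts, so the wider of these gaps holds a further gene start.

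In 12 gaps there were 2 summits, 199 to 1727 bp apart (median 636 bp), and in 10 of the 12 each start had its own nearer summit. At ntl-11/fdx-2, with a subunit gene of the CCR4-NOT deadenylase on 1 side and a ferredoxin gene on the other, the stronger was 120 bp from ntl-11 (475.9; 248.2 in replicate 1 and 221.4 in replicate 2) and the weaker 198 bp from fdx-2 (217.8; 83.9 and 138.1). Both held CGCAGA, and they differed in which replicate was the higher. At rab-14/nipi-3 the summits measured 313.8 (128.3 and 178.8), 258 bp from nipi-3, and 102.5 (45.3 and 51.3), 422 bp from rab-14. At ecps-1/atx-2 they measured 233.7 (113.8 and 122.4), 51 bp from atx-2, and 124.7 (49.6 and 72.9), 206 bp from ecps-1. The other pairs among the highest were nrde-2/atad-3 (437.0 and 93.0), where the weaker summit lies in a sequence of 5 copies in the genome, and vps-4/gsa-1 (209.7 and 107.3).

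GC content over the central 100 bp had a median of 50% (quartiles 45 and 55), against 35% in flanks 200 to 300 bp away, and exceeded the flanks in 247 of 272 peaks (90.8%, 86.7 to 94). The median difference was 14.2 percentage points. One-sided peaks had a similar centre, with a median of 49%. The part of base composition in the recovery of DNA fragments was not tested. At 264 summits the central 36 bases occur once in the genome, and 8 lay in repeated sequence, where reads cannot be placed with certainty.

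CGCAGA, searched on both strands within 50 bp of the summit, was present at 45 of 272 (16.5%, 12.3 to 21.5). The share was 2.57% in 544 flanks of the same width, 3.68% at the midpoints of 2311 gaps without a summit, 3.32% in windows 150 bp upstream of all 19973 gene starts and 5.31% at 1675 lower-ranked peaks in gaps. It was 13.6% at one-sided peaks (84 of 617) and 13.2% at all main peaks, and the odds ratio between divergent and one-sided peaks was 1.26 (0.827 to 1.89; two-sided Fisher's exact test adjusted over 3 tests, p = 0.257). The difference from other promoter peaks did not pass the test, and the interval allows an odds ratio on either side of 1. The overlapping ACGCAG was present at 18.8%, and 30 of the 66 peaks with either word had both joined as ACGCAGA, as in the drr-2/set-16 and ntl-11/fdx-2 windows printed above. Of 46 matches to CGCAGA, 32 were within 25 bp of the summit, and 19 were on the strand of the nearer gene. At hsp-3/C15H9.5, the 1 member with 2 copies, they stand 2 bases apart.

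Peaks with and without the word had close values. The median signal was 130 with the word and 131 without it, and 53.3% against 52.4% were in both own lists. Of 14 patterns searched on both strands, TATAAA was rare at summits (3.68%, against 11.4% of flanks and 13.4% of promoters), with 4.05% at one-sided peaks. GAGAGA was present at 20.2% (6.07% of flanks, 8.42% of promoters) and at 23.5% of one-sided peaks, and GGGCGG at 9.19% (1.29% and 2.55%) and at 7.94% of one-sided peaks. CCAAT was found at 20.6% of these summits and 18.9% of flanks, with 12.3% at one-sided peaks. A match is a description of letters and not of a bound site, and the part of GC content in these shares was not tested.

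Alternating GAA and TTC units, at least 3 in a row, were searched for after the F44E5.4/F44E5.5 window had been read. They were present at 6 of the 272 summits (2.21%), at 4 of 617 one-sided peaks (0.648%), in 3 of 544 flanks (0.551%) and in 120 of the 19973 promoter windows (0.601%). Over all main peaks there were 22 in 1927 (1.14%), so that 16 lay at peaks outside the set. The 6 gaps were F44E5.4/F44E5.5, hsp-110/rpn-3 (271.1; 133.8 in replicate 1 and 148.4 in replicate 2), mtx-1/dnj-12 (147.1; 86.9 and 69.7), cyn-7/bath-36 (129.5; 69.7 and 57.3), ahsa-1/C01G10.7 (104.0; 40.4 and 61.5) and R107.5/cls-2 (378.2; 171.7 and 216.0). All but the last hold a gene of protein folding: Hsp70 and Hsp110 chaperones, the Hsp40 protein DNJ-12, the cyclophilin CYN-7 and AHSA-1, an activator of the Hsp90 ATPase. This grouping was made after the 6 gaps had been read, and its share over all 272 peaks was not counted. The chaperone list, which is drawn by name and lacks F44E5.4, F44E5.5 and ahsa-1, had a gene at 16 of the 272 (5.88%). The pattern was chosen after its values were seen and was not tested.

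Noncoding genes lay near some of these summits, so that a peak can have more than 2 candidate genes. Within 200 bp there was a tRNA gene at 7 peaks (2.57%), against 3.89% of one-sided and 7.52% of all main peaks. A snoRNA gene was that near at 5 (1.84%, against 2.59% and 3.11% of the same classes). An snRNA gene was near at 1 (0.368%, against 1.46% and 1.14%) and a miRNA gene at 2 (0.735%, against 0.324% and 0.675%). Other noncoding RNA genes were that near at 43 (15.8%, against 17.3% of one-sided peaks). The summits of 7 peaks fell inside the body of a further protein-coding gene, as at F54D5.9/dnj-13, and 11 lay in a gap with a further gene start.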

How the data were processed

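The data were peak lists of 1 group of 2 biological replicates on build ce11, per the labels. Lists are ranked or thresholded by the irreproducible discovery rate (IDR), for each replicate and for pooled replicates, per the deposited notes, which also name a control alignment. The sources used here do not give the aligner, the peak caller, their versions or read numbers, and depth is unknown. The deposited signal is the authors' peak height with unstated scaling, and the deposited score is a whole number of at most 1000 (832 or more here). The summit is the deposited start plus the deposited offset. In the pooled ranked list, 8 columns of values per replicate were not used.

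The main list was the pooled thresholded list named conservative. Gene starts came from Ensembl release 115 (WBcel235, with the names and lengths of ce11), and symbols and products from RefSeq (19962 of 19973 genes matched). A gap runs between the nearest minus-strand gene start to the left of a summit and the nearest plus-strand gene start to its right. A replicate's value is its highest ranked peak overlapping by at least 1 bp. Shares have exact Clopper-Pearson 95% intervals. The 3 differences from one-sided peaks were tested with two-sided Fisher's exact tests with Benjamini-Hochberg adjustment. With 1 group there was no comparison between conditions.

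Members, lists, patterns and tests were chosen with earlier results of these data known. Genes named are those of the top 20 peaks that both replicates' own lists also held, the 5 highest gaps with 2 summits, pairs with both genes in 1 list, up to 4 per list by signal, the 3 widest and 3 shortest gaps, and the 3 largest replicate differences each way. Genes of the GAA and TTC search, and the bases before gene starts, were chosen after their values were seen. Alternatives were the second pooled list, each replicate's list alone, the 50% of main peaks with the highest signal, other gap lengths, promoter windows, starts, overlaps and window sizes. The counting was tested on simulated peaks. Tables were made with pandas 2.3.3 and numpy 2.4.6 in Python 3.11.15, tests with scipy 1.17.1 and figures with matplotlib 3.10.9. The sequence of 1 gap is not reported here.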

Additional observations from a re-analysis of the deposited data

How the results depend on the processing

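Of 102 values recomputed under alternatives, 92 kept their direction and their side of the threshold or stayed within the spread allowed. That spread was wide for some results. A count of 186 peaks, with gaps of at most 1000 bp, was called the same as 272. The replicate ratio could move by up to its SD over peaks. The CGCAGA result was called the same while its direction held and it stayed short of the threshold. From a single replicate's own list, the number of peaks was 170 to 202 and the number of pairs with a summit 158 to 187, the lower values without replicate 2. Those runs gave 49 to 52.4% in the central part, 166 bp to the nearer start, 63.9 to 68.2% above the median signal, 16.8 to 17.1% with CGCAGA and 15 points of GC difference. In the 50% of main peaks with the highest signal, both calls against one-sided peaks were lost (72.8% in both replicates' lists and 60.5% above the median), and the share with CGCAGA turned to 15.4% against 16.4%. With gaps of at most 1000 bp it turned too, to 13.4% against 14.8%, the central share was 61.8% and the nearer start was 142 bp away. Gaps of at least 400 bp gave 198 bp, and GC over 200 bp a difference of 9.25 points. The causes of the lost and turned calls were not tested. The count of peaks was 275 in the second list, 314 with transcript starts and 329 with gaps up to 3000 bp. Alternatives chosen after seeing the data left out summits inside another gene (265 peaks), gaps with a further start (261), the weaker of 2 summits in a gap (260) or main peaks that share a replicate peak with a higher one (268), and changed no call. No paired analysis was possible because both replicates belong to 1 group. Depth is unknown and no control library was analysed here, so the lists limit which weaker summits could be seen.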
